A study of Arachis hypogaea with 3 samples.

Results

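This comparison covers the transcripts of peanut gynophores on both sides of the onset of pod swelling, with both stages below ground. It sets S2, gynophores buried for about 3 days, against S3, gynophores that carry swelling pods. Members were all described sequences of the expression table with at least 10 RPKM in S2 or S3, where RPKM is the number of reads per kilobase of sequence and per 1000000 counted reads of the library. They numbered 29040 of the 83579 sequences of the table, and 54633 sequences had a description, that is, a best match to a protein in a public database.

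The transcript values came from RNA sequencing of peanut (Arachis hypogaea, cultivar Luhua 14) grown on a farm, with 1 library for each of 3 stages. S1 gynophores were aerial, green or purple and 3 to 5 cm long. S2 gynophores had reached the soil about 3 days earlier. They had lost their pigment, and their ovary was not yet visibly larger. S3 gynophores had grown in the dark and bore pods 2 to 3 mm long, so that S2 and S3 differ in time underground as well as in pod growth. No allele or agent was used, and plants of all 3 stages shared cultivar and farm. The study took the tip-most 1 cm of gynophores for protein, and neither the labels nor the methods say whether RNA came from the same piece or how many gynophores were pooled.

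The gynophore is a stalk that grows downward from the base of the pollinated peanut flower and carries the fertilised ovary at its tip into the soil. The embryo pauses while the gynophore elongates in the light, and the ovary swells into a pod only in darkness under the soil surface. Swelling replaces the directed elongation of the stalk by growth of the pod wall and, later, of the seed, so that wall-loosening enzymes, wall polymers, hormones and storage compounds are the classes usually followed at this step.

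Of 20734295 counted reads, 33.3% were in the S1 library, 32.2% in S2 and 34.5% in S3, so depth was nearly equal. With a single library on each side, no replicate error exists against which S2 and S3 could be compared, and neither SD nor p is given. Ratios carry a 95% Clopper-Pearson interval, and RPKM values in the plots a 95% Poisson interval. Both are exact, cover counting error only, and set libraries rather than stages against each other. Values given "at S1, S2 and S3" stand in that order, and reads of a whole group are given as RPM, the reads per 1000000 counted reads of the library. "Most abundant" stands for the highest mean RPKM of S2 and S3. "Rose" and "fell" are used here of a ratio of RPKM + 1 of at least 2 in either direction. In whole tissue, fewer cells of a type and less RNA per cell cannot be told apart. The 10 most read sequences took 3.71% of the reads in S2 and 3.71% in S3, and the 100 most read took 13.6% and 11.7%.

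Markers of the labelled tissue were checked first. Photosystem, antenna and Rubisco sequences, the machinery of photosynthesis, held 3393, 145 and 304 RPM at S1, S2 and S3 over 12 members, so that both buried stages stood far below the aerial one. Of these 12 members, 6 rose from S2 to S3 (4 under the other scalings) and 0 fell, and a photosystem II chlorophyll a/b-binding protein (EZ723829.1) had 1054, 24.2 and 70.9 RPKM at S1, S2 and S3. Seed proteins (arachins, conarachins, conglutins and oleosins) held 617, 873 and 1027 RPM at S1, S2 and S3. A single sequence (EZ734127.1) took 35.2% of these reads in S2 and 50.4% in S3. Of the 12 seed protein members 0 rose and 2 fell (16.7%), against 18.4% and 14% of all members. Their median log2 ratio was 0.23, and 0.00060 to 0.017 under the other scalings. Phloem proteins are given with the vascular genes, and no description named xylem or tracheary proteins.

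Over all members, 5346 (18.4%) rose by 2 times or more and 4069 (14%) fell by as much. At 4 times the numbers were 780 (2.69%) and 1092 (3.76%). The median log2 ratio of S3 to S2 was 0.19, with 90% of members between -1.78 and 1.70. Because the limit needs only 1 of the stages, members near it that passed through 1 stage alone tend to differ. The limit of 10 RPKM was passed in both stages by 19753 members, in S2 alone by 3851 and in S3 alone by 5436. The described sequence just inside the limit had 7.33 RPKM in S2 and 10.003 in S3, and the one just outside had 6.20 and 9.99. Only 10668 members had a description that names a function, with 4713 different names. Of these, 18.3% rose and 17% fell. Of the 18372 members described only as hypothetical, unknown or unnamed, 18.5% rose and 12.3% fell.

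**Figure D1:**
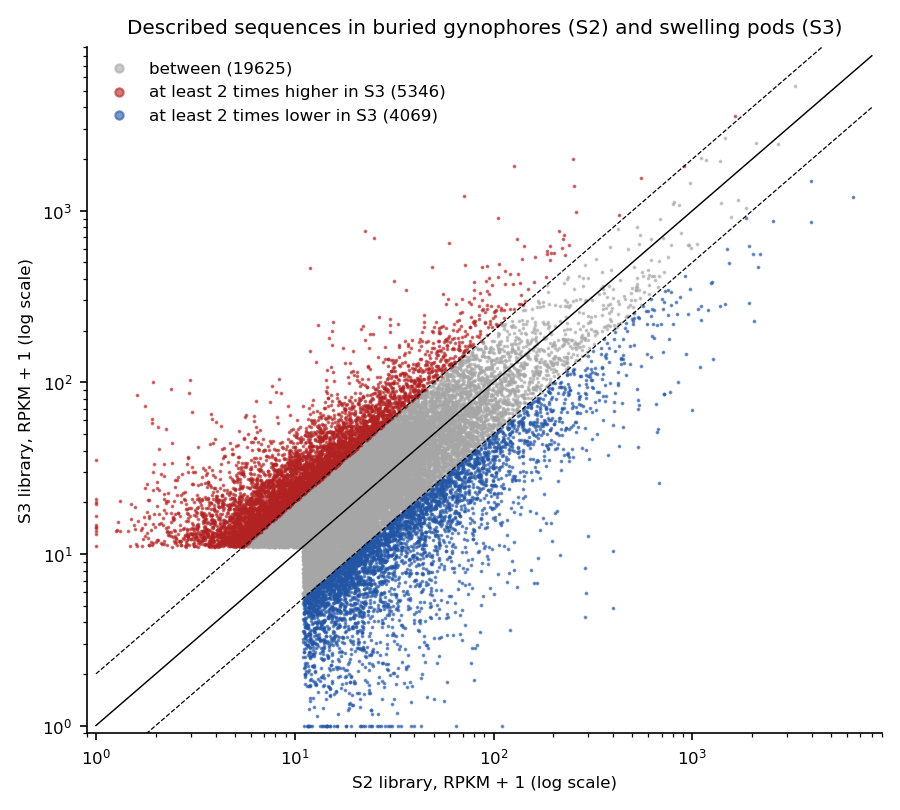
RPKM + 1 of each of the 29040 members in the S2 library (horizontal axis, log scale) and the S3 library (vertical axis, log scale), with equality as a solid line and 2 times higher or lower as dashed lines. The 5346 members in red rose and the 4069 in blue fell, and the corner without points is set by the limit of 10 RPKM.

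The balance of rises and falls moved with the scaling of the libraries. Scaling by the median of ratios, the upper quartile or TMM lowered every S3 to S2 ratio by 0.23, 0.25 or 0.23 on the log2 scale. Rises were 56.8% of the members past 2 times with RPKM as deposited, and 41.1%, 39.9% and 40.9% under these scalings, where 12.5% to 12.9% of all members rose and 18.5% to 18.9% fell. Group medians are therefore to be read against the median of all members, since a scaling moves both by nearly the same amount. Rises and falls were also spread unevenly over levels and lengths. Among the 225 members above a mean of 300 RPKM, 38.2% fell and 12.9% rose, with a median log2 ratio of -0.70. Among the 3763 members below a mean of 10 RPKM, 29.2% rose and 21.7% fell, with a median of 0.46. Members under 200 bases had a median of 0.40 and those of 1200 bases or more 0.097. Sequences similar to retroelements and transposons, which are mobile DNA, had 37 rises and 0 falls among 76 members and a median of 0.96. The part of these shifts in the results for single groups was not tested.

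Of 53 groups of genes formed from words in the descriptions, 50 had at least 10 members. For 33 of the 50 the median log2 ratio was below 0, and for 10 it was -1 or below. No group of that size had a median of 1 or above. The lowest medians belonged to lipid transfer and cuticle proteins (-2.08), secretory peroxidases (-1.93), expansins (-1.61) and phenylpropanoid and lignin enzymes (-1.56). Relative to the median of all members these were -2.26, -2.12, -1.80 and -1.75. The highest belonged to photosystem and antenna proteins (0.97), cytokinin and two-component genes (0.93) and MADS and homeobox factors (0.59), which relative to all members were 0.79, 0.75 and 0.41. With members chosen by their mean RPKM over the 3 libraries, these medians were 0.59, 0.85 and 0.54. The photosystem group then had 26 members instead of 12 and lay below the cytokinin group. Groups are not lists of separate genes, because unigenes and public sequences of the same gene stand in separate rows.

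**Figure D2:**
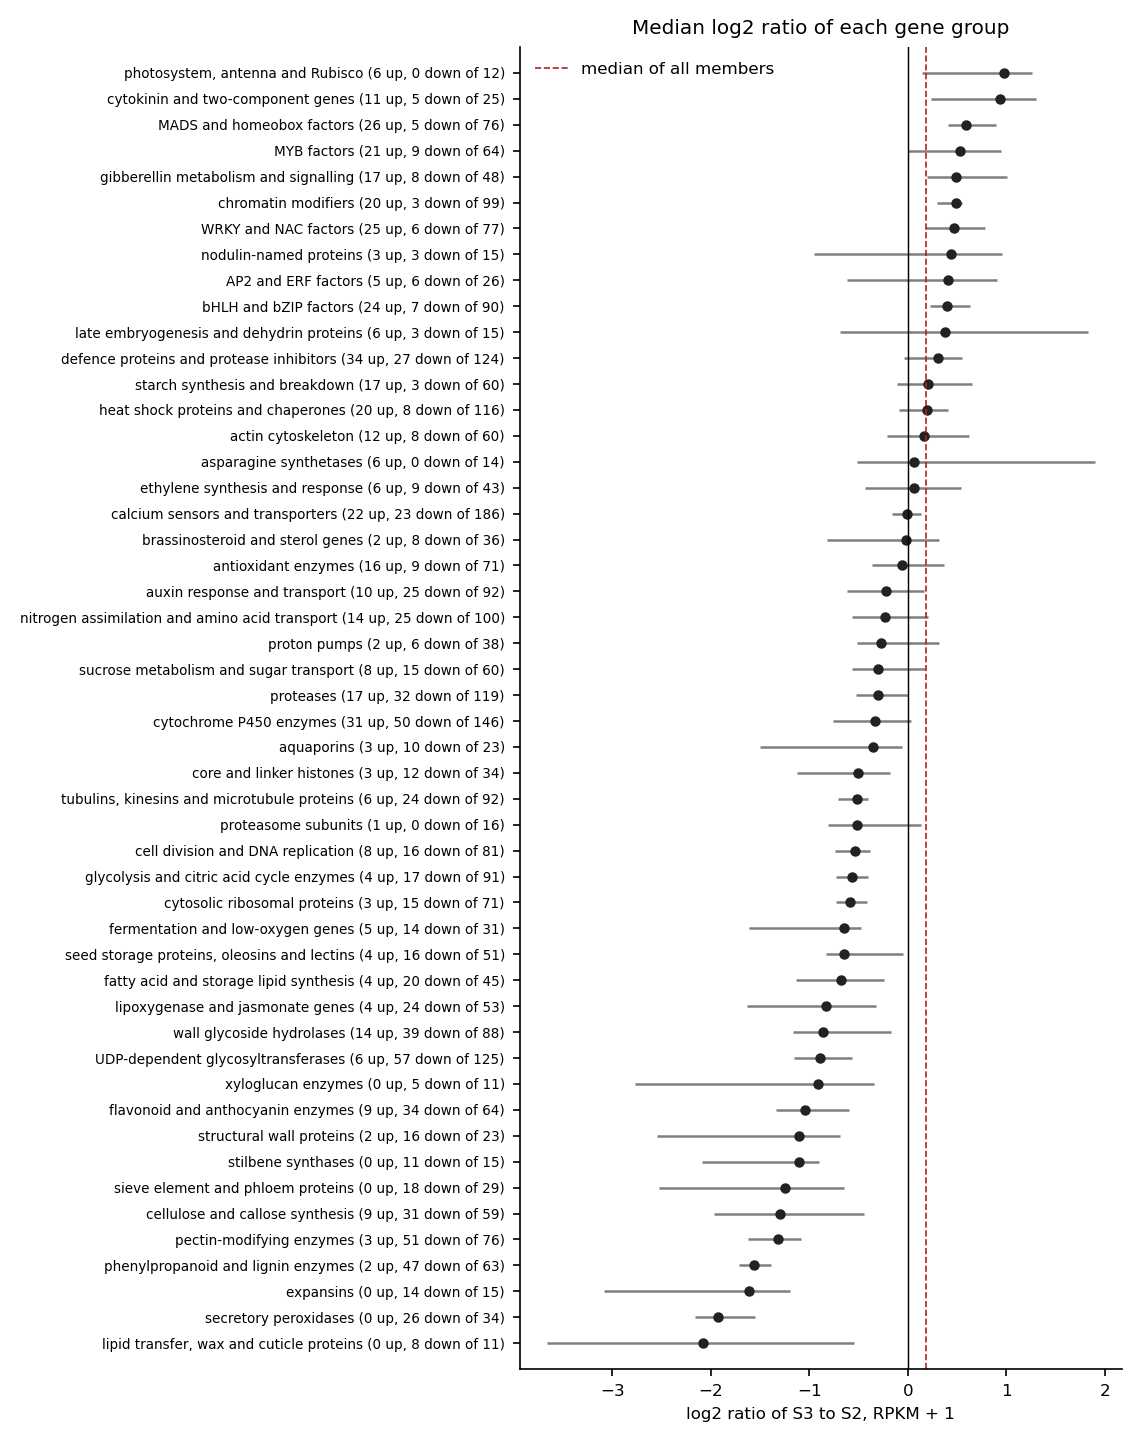
Median log2 ratio of S3 to S2 (RPKM + 1, horizontal axis) of the 50 gene groups with at least 10 members, with the 95% order-statistic interval over the members as a grey line and the median of all members, 0.19, as a dashed line. The labels count the members at least 2 times higher (up) or lower (down) in S3, and the low end holds wall, phenolic, surface and phloem groups, while the high end holds photosystem proteins followed by cytokinin genes and transcription factors.

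Cell wall genes were mostly lower once pods swelled. Expansins, the proteins that loosen the bonds between cellulose and its matrix during growth, fell in 14 of 15 members and rose in 0, against 14% and 18.4% of all members, and their median was -1.80 relative to that of all members. An expansin (Unigene19425) had 43.3, 78.9 and 0.845 RPKM at S1, S2 and S3, and was 93.4-fold lower in S3 than in S2 (95% interval 39.7 to 289). The most abundant expansin, an alpha-expansin family protein (Unigene59954), had 47.0, 89.1 and 32.0 RPKM at S1, S2 and S3. The one member that did not reach the limit was alpha-expansin 13 (Unigene3619), with 26.4, 19.7 and 14.9 RPKM at S1, S2 and S3. Counted together, expansin reads were 322, 434 and 118 RPM at S1, S2 and S3, so the S3 library held the fewest.

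Xyloglucan enzymes build, cut or rejoin the hemicellulose that ties cellulose fibres, and 5 of their 11 members fell while 0 rose. A probable xyloglucan endotransglucosylase (EZ735377.1) carried most of their reads, with 1306, 715 and 84.6 RPKM at S1, S2 and S3. It was 8.46-fold lower in S3 than in S2 (95% interval 7.87 to 9.11), and its level already lay lower in S2 than in S1.

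Pectin enzymes fell in 51 of 76 members and rose in 3, with a median log2 ratio of -1.32. Pectin methylesterases, which strip methyl groups from pectin, fell in 26 of 34 and rose in 2. The most abundant of them (EZ735458.1) stood at 392, 1109 and 230.0 RPKM at S1, S2 and S3, so that it was highest in the S2 library, and it was 4.82-fold lower in S3 than in S2 (95% interval 4.56 to 5.10). Pectinesterase 24 (Unigene7632) was among the 12 largest falls, with 12.6, 81.4 and 1.95 RPKM at S1, S2 and S3 and a ratio of 41.8-fold (95% interval 16.0 to 155) between S2 and S3. Polygalacturonases, which cut the demethylated chain, fell in 13 of 18 and rose in 1, and the one with the highest mean of S2 and S3 (Unigene67445) had 27.3, 91.1 and 63.2 RPKM at S1, S2 and S3, short of the limit.

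Cellulose synthases, the membrane enzymes that spin cellulose, split within the family. Of 46 members 30 fell, 20 of them at least 4 times, and 5 rose. Cellulose synthase 7.1 (Unigene71666), whose number in Arabidopsis belongs to a subunit of secondary walls, had 50.4, 53.2 and 2.29 RPKM at S1, S2 and S3, and was 23.2-fold lower in S3 than in S2 (95% interval 14.8 to 38.4). The most abundant member, cellulose synthase A catalytic subunit 6 (Unigene60139), whose number in Arabidopsis belongs to primary walls, had 304, 203 and 211 RPKM at S1, S2 and S3 and so barely differed. Another fragment with the name of subunit 6 (Unigene21442) rose from 38.4 to 127 RPKM, as did 4 more cellulose synthase fragments whose log2 ratios were 1.19 to 1.66. These are the rows Unigene57612, Unigene18232, JK192533.1 and Unigene14132, chosen after their values were seen.

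Wall hydrolases changed strongly in both directions. A glucan endo-1,3-beta-glucosidase (Unigene10511), which cuts callose and related glucans, had 88.3, 289.6 and 4.91 RPKM at S1, S2 and S3, and was 59.0-fold lower in S3 than in S2 (95% interval 43.8 to 81.4), the largest fall under the rule that chose sequences to be named. Beta-1,3-glucanases as a whole fell in 11 of 24 members and rose in 1. The most abundant beta-galactosidase (Unigene66422), of enzymes that trim galactose from wall polymers, had 266, 176 and 15.3 RPKM at S1, S2 and S3.

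Endo-beta-mannanases, which break the mannan backbone of hemicellulose, went in both directions. An endo-1,4-beta-mannanase (JK195448.1) had 0.917, 21.6 and 765 RPKM at S1, S2 and S3, from 91 reads in S2 to 3453 in S3, and was 35.4-fold higher in S3 than in S2 (95% interval 28.8 to 44.1). A shorter sequence of the same name (Unigene50234) had 0, 10.9 and 461 RPKM at S1, S2 and S3, close in ratio to the first, and was chosen after its values were seen. By contrast, the endo-beta-mannanase Unigene90 had 35.3, 38.9 and 16.4 RPKM at S1, S2 and S3, and Unigene68010 had 14.8, 14.2 and 3.84 RPKM at S1, S2 and S3. Mannanase reads in all were 82.8, 106 and 646 RPM at S1, S2 and S3, a change carried by the first pair of sequences.

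Structural wall proteins fell in 16 of 23 members and rose in 2. Glycine-rich protein TomR2 (JK186943.1) had 59.2, 215 and 8.83 RPKM at S1, S2 and S3, and a 14 kDa proline-rich protein (EZ731964.1) had 2.88, 25.2 and 0.164 RPKM at S1, S2 and S3 with a single read in S3. The most abundant one, a proline-rich protein (GW964573.1), had 327, 1857 and 904 RPKM at S1, S2 and S3, and remained one of the most expressed sequences in S3. In the other direction, a glycine-rich protein (EZ725060.1) had 224, 219 and 606 RPKM at S1, S2 and S3, and was 2.77-fold higher in S3 than in S2 (95% interval 2.61 to 2.94).

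Genes of phenolic metabolism fell far more often than they rose. Secretory peroxidases, which crosslink phenolic compounds in the wall with hydrogen peroxide, fell in 26 of 34 members, 16 of them at least 4 times, and rose in 0. Peroxidase1B (GW970681.1) was the most abundant, with 686, 2187 and 555 RPKM at S1, S2 and S3, and was 3.94-fold lower in S3 than in S2 (95% interval 3.76 to 4.13). A haem peroxidase (JK188643.1) had 1.09, 36.3 and 1.58 RPKM at S1, S2 and S3, so that its reads were nearly confined to the S2 library. The members that stayed level included peroxidase 1 (GW964786.1), with 20.6, 16.1 and 15.0 RPKM at S1, S2 and S3. Peroxidase reads in all were 2203, 3849.9 and 1723 RPM at S1, S2 and S3.

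Enzymes of the phenylpropanoid pathway, which turns phenylalanine into lignin and flavonoid precursors, fell in 47 of 63 members and rose in 2. Phenylalanine ammonia-lyase is the first step, and 11 of its 16 members fell and 0 rose, with all 11 falls under 4 times. One such sequence (EZ728369.1) had 104, 192 and 52.0 RPKM at S1, S2 and S3, whereas the most abundant (EZ740184.1) had 99.1, 178 and 218 RPKM at S1, S2 and S3 and was slightly higher in S3. Cinnamate 4-hydroxylase, the second step (EZ727157.1), had 230.2, 447 and 135 RPKM at S1, S2 and S3, and was 3.31-fold lower in S3 than in S2 (95% interval 3.14 to 3.49). Laccases, the copper oxidases that polymerise lignin, fell in 11 of 12 members and rose in 0, with a median of -2.07. Laccase 3 (Unigene16505) had 37.4, 50.9 and 1.32 RPKM at S1, S2 and S3, a ratio of 38.4-fold (95% interval 18.4 to 96.5) between S2 and S3. Laccase 1b (Unigene72368) had 118, 71.0 and 2.87 RPKM at S1, S2 and S3, and the exception, laccase 110a (Unigene58379), had 0.806, 32.6 and 32.7 RPKM at S1, S2 and S3.

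Flavonoid enzymes fell in 34 of 64 members and rose in 9. Dihydroflavonol 4-reductase (Unigene71925), which leads to anthocyanins and tannins, had 259, 99.4 and 4.87 RPKM at S1, S2 and S3, a stepwise order of the 3 libraries, and was 20.4-fold lower in S3 than in S2 (95% interval 15.2 to 28.0). A leucoanthocyanidin dioxygenase of the same branch (Unigene67853) had 6.97, 14.7 and 68.2 RPKM at S1, S2 and S3 and was 4.65-fold higher in S3 than in S2 (95% interval 3.54 to 6.20). Stilbene synthases make resveratrol, a defence compound of peanut, and 11 of 15 members fell while 0 rose. The most abundant resveratrol synthase (GW979497.1) had 3.27, 63.0 and 16.9 RPKM at S1, S2 and S3, again highest in S2. UDP-dependent glycosyltransferases, which attach sugars to such compounds, fell in 57 of 125 members and rose in 6.

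**Figure D3:**
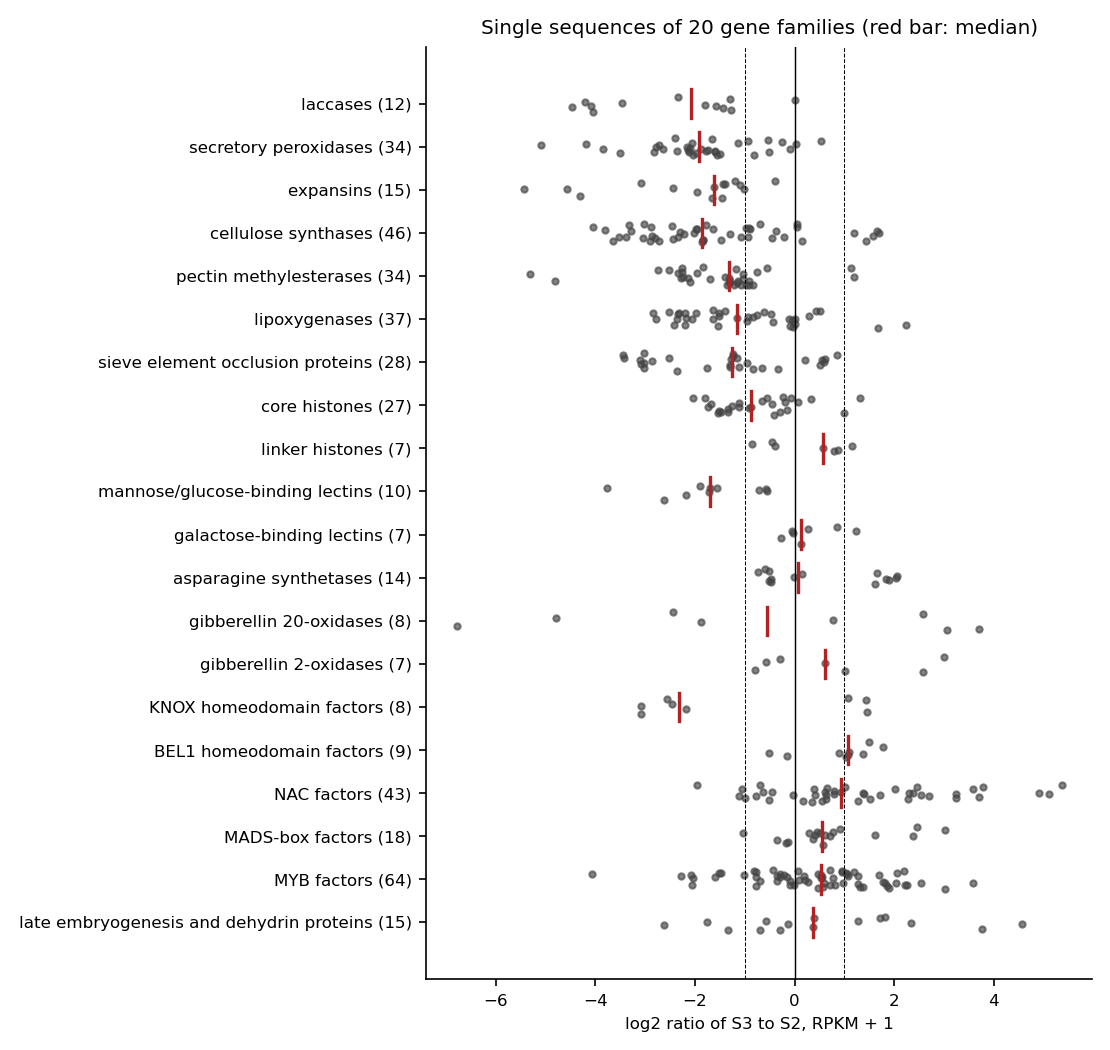
Log2 ratio of S3 to S2 (RPKM + 1, horizontal axis) of every member of 20 gene families (number in parentheses), 1 point per sequence, with the family median as a red bar and ratios of 2 times as dashed lines. Laccases, peroxidases and expansins lie almost wholly on the left, and cellulose synthases, gibberellin oxidases, KNOX factors and asparagine synthetases split into separate sets.

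Genes of the surface and the phloem were lower as well. Lipid transfer and cuticle proteins fell in 8 of 11 members and rose in 0, and held 1275, 1403 and 202 RPM at S1, S2 and S3. A bifunctional inhibitor or lipid-transfer protein (EZ742210.1) had 552, 532 and 41.1 RPKM at S1, S2 and S3, and a lipid transfer protein (EZ725383.1) had 542, 535 and 68.6 RPKM at S1, S2 and S3. The group had a median log2 ratio of -2.08, or of -1.46 when members were chosen by their mean RPKM over the 3 libraries. Sieve element and phloem proteins fell in 18 of 29 members and rose in 0, nearly all of them named sieve element occlusion proteins, which plug injured phloem in legumes. Of these, sieve element occlusion l (Unigene8726) had 33.5, 93.8 and 9.96 RPKM at S1, S2 and S3, and sieve element occlusion g (Unigene58763), one of the more abundant, had 178, 115 and 176 RPKM at S1, S2 and S3.

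Genes of dividing and growing cells were moderately lower. Cell division and DNA replication genes fell in 16 of 81 members (27 to 28 under the other scalings) and rose in 8. These were 19.8% and 9.88%, against 14% and 18.4% of all members. Their median log2 ratio was -0.54, or -0.72 relative to all members. Subunits of the replication machinery fell in 6 of 25 (24%) and rose in 2 (8%). The small chain of ribonucleoside-diphosphate reductase (EZ728856.1), which supplies deoxynucleotides, had 108, 98.8 and 34.3 RPKM at S1, S2 and S3, and was 2.88-fold lower in S3 than in S2 (95% interval 2.56 to 3.25). Cyclins fell in 6 of 29 (20.7%) and rose in 3 (10.3%). Cyclin A (Unigene66585) had 34.2, 19.8 and 8.98 RPKM at S1, S2 and S3. Cyclin T1 (Unigene66166), a cyclin of transcription rather than of division, had 62.1, 75.1 and 161 RPKM at S1, S2 and S3. Its rise is lost under the other scalings. Of the 3 B-type cyclins among the members, 0 fell and 0 rose.

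Core and linker histones were measured separately. Core histones, which DNA wraps around, fell in 12 of 27 members and rose in 2, and held 2657, 3051 and 1727 RPM at S1, S2 and S3. Histone H3.2 (EZ755733.1) had 567, 627 and 186 RPKM at S1, S2 and S3, and was 3.37-fold lower in S3 than in S2 (95% interval 3.13 to 3.64). Linker histone H1, which sits between the cores, held 1553, 1713 and 2769 RPM at S1, S2 and S3 over 7 members, of which 1 rose and 0 fell, a share near that of all members. Under the other scalings 0 rose and 1 fell. Its most abundant sequence (EZ726219.1) had 378, 427 and 947 RPKM at S1, S2 and S3, and was 2.22-fold higher in S3 than in S2 (95% interval 2.13 to 2.31), a rise that is lost under those scalings. A linker sequence named H1/H5 (EZ726594.1), chosen after its values were seen, had 222, 235 and 178 RPKM at S1, S2 and S3.

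Microtubule and basic metabolic genes were lower as well, whereas actin genes were not. Tubulins, kinesins and other microtubule proteins fell in 24 of 92 members and rose in 6, and tubulin reads were 6471, 5182 and 3033 RPM at S1, S2 and S3. The most abundant alpha tubulin (EZ730116.1) had 1080.5, 915 and 417 RPKM at S1, S2 and S3. Actin genes fell in 8 of 60 and rose in 12 (10 and 9 to 10 under the other scalings). These were 13.3% and 20%, near the 14% and 18.4% of all members. Their median of 0.16 turned negative under the other scalings. The most abundant actin (EZ723877.1) had 464, 508 and 468 RPKM at S1, S2 and S3, about level. Cytosolic ribosomal proteins had a median of -0.58 and fell in 15 of 71 members (24 to 25 under the other scalings) while 3 rose. Enzymes of glycolysis and the citric acid cycle had a median of -0.57, with 17 falls (33 to 34 under the other scalings) and 4 rises among 91. A sucrose synthase (GW992499.1), which feeds sucrose into metabolism and wall synthesis, had 1039.6, 803 and 218 RPKM at S1, S2 and S3, and was 3.68-fold lower in S3 than in S2 (95% interval 3.41 to 3.97). Its group, sucrose metabolism and sugar transport, fell in 15 of 60 members and rose in 8. The group held 3733, 4052 and 2917 RPM at S1, S2 and S3. Its most read sequence was another one (EZ721504.1), with 18.7% of the group's reads in S2 and 17.6% in S3.

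Chromatin modifiers rose in 20 of 99 members, near the 18.4% of all members, and fell in 3, with a median of 0.48, or 0.30 relative to all members. Under the other scalings 9 to 10 rose and 7 fell. A chromatin remodelling ATPase (EZ726480.1) had 11.6, 11.2 and 41.4 RPKM at S1, S2 and S3. A DNA methyltransferase (Unigene45) had 107, 72.8 and 36.6 RPKM at S1, S2 and S3, just short of the limit for a fall with RPKM as deposited and past it under the other scalings.

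The 5 most abundant named transcripts of S2 encode a trypsin inhibitor, an allergen, 2 lectins and a peroxidase, and all 5 had their highest value there. Trypsin protein inhibitor 2 (EZ721698.1), which blocks digestive proteases, had 55.1, 6449 and 1206 RPKM at S1, S2 and S3, the highest value of any sequence with a named function in S2. It was 5.35-fold lower in S3 than in S2 (95% interval 5.18 to 5.53) and still stood above its S1 level. Trypsin and Kunitz inhibitors together fell in 9 of 10 members, with 2589, 6348 and 1309.9 RPM at S1, S2 and S3. The member that did not was an inter-alpha-trypsin inhibitor heavy chain (Unigene58865), with 11.5, 11.9 and 15.7 RPKM at S1, S2 and S3, a different kind of protein that shares the word. Ara h 8, a peanut allergen of the pathogenesis-related PR-10 family (EZ726452.1), had 343, 3961 and 1486 RPKM at S1, S2 and S3, and was 2.67-fold lower in S3 than in S2 (95% interval 2.60 to 2.73). PR-10 and Ara h 8 sequences fell in 5 of 10 members and rose in 1. A chitinase (Unigene67020), an enzyme against fungal walls, had 477, 993 and 67.8 RPKM at S1, S2 and S3, and was 14.6-fold lower in S3 than in S2 (95% interval 13.0 to 16.5).

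Lectins, sugar-binding proteins that legumes store in seeds and vegetative tissue, are also given by their sugar, in small groups formed after values were seen. Legume lectins held 6519, 19836 and 13356 RPM at S1, S2 and S3, and of 38 members 14 fell and 4 rose. The most abundant (EZ735837.1) had 394, 2685 and 2463 RPKM at S1, S2 and S3, and stayed level through swelling. Mannose/glucose-binding lectins fell in 7 of 10 members and rose in 0, with 1 precursor (DQ889583.1) at 523, 2551 and 868 RPKM at S1, S2 and S3. The most read of this type (EZ732007.1) had 295, 1691 and 1157 RPKM at S1, S2 and S3 and was lower in S3 but short of the limit. Galactose-binding lectins fell in 0 of 7 and rose in 1, with a median log2 ratio of 0.14, which turned slightly negative under the other scalings. Reads for the mannose/glucose-binding type were 1589.6, 7830.3 and 3599.8 RPM at S1, S2 and S3, and for the galactose-binding type 385, 1107 and 1053 RPM at S1, S2 and S3.

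Seed-type proteins were read in all 3 libraries, at levels that ranged widely. Ara h 1 (EZ731610.1), a vicilin of the peanut seed, had 709, 803 and 1092 RPKM at S1, S2 and S3, and oleosin 3 (EZ732070.1), a coat protein of oil bodies, had 6.73, 8.80 and 17.2 RPKM at S1, S2 and S3. Both values rest on a short stretch of sequence. Reads covered 25.75% of the 299 bases of the Ara h 1 sequence in every library. For oleosin 3 they covered 11.0%, 17.4% and 19% at S1, S2 and S3. Conglutin (EZ724139.1), a small seed albumin, had 61.5, 193 and 42.6 RPKM at S1, S2 and S3 and was highest in S2. Late embryogenesis and dehydrin proteins, which protect drying seeds, rose in 6 of 15 members and fell in 3. Seed maturation protein PM39 (EZ757937.1) had 3.23, 1.26 and 52.7 RPKM at S1, S2 and S3, from 6 reads in S2 to 270 in S3, and was 42.0-fold higher in S3 than in S2 (95% interval 19.0 to 115). The group 6 protein (EZ748527.1) went the other way, with 62.8, 169.5 and 26.7 RPKM at S1, S2 and S3. Dehydrin (EZ723109.1) was the most abundant, with 591, 687 and 891 RPKM at S1, S2 and S3.

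Starch genes rose in 17 of 60 members and fell in 3, or rose in 8 to 10 and fell in 7 under the other scalings. An ADP-glucose pyrophosphorylase, which makes the sugar donor for starch (EZ721940.1), had 42.3, 49.4 and 210.2 RPKM at S1, S2 and S3. It was 4.26-fold higher in S3 than in S2 (95% interval 3.92 to 4.63). Another sequence to which the study gives this enzyme name, in its list for S2, went the other way and was lower in S3. Beta-amylase (EZ722242.1), a starch-degrading enzyme, had 109, 136 and 174 RPKM at S1, S2 and S3. The group median of 0.20 turned slightly negative under the other scalings, so the group as a whole stayed close to the median of all members. Genes for fatty acid and storage lipid synthesis fell in 20 of 45 and rose in 4, with acyl carrier protein 5 (EZ743755.1) at 97.2, 89.9 and 42.4 RPKM at S1, S2 and S3.

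Asparagine synthetases, which make the main nitrogen carrier of many legumes, formed separate sets. Of 14 members 6 rose and 0 fell. The one with the most reads (JK180262.1) had 10.9, 186 and 584 RPKM at S1, S2 and S3, a rise at each stage, and was 3.15-fold higher in S3 than in S2 (95% interval 2.89 to 3.43). The 6 that rose were at 0.532 to 11.7 RPKM before burial, at 17.1 to 221 RPKM at S2 and at 72.8 to 756 RPKM at S3. The other 8 had log2 ratios from -0.73 (JK192457.1) to 0.15 (EZ743890.1), with a type III enzyme (Unigene14150) at 16.1, 19.6 and 19.4 RPKM at S1, S2 and S3. The rows that rose are JK180262.1, Unigene28744, Unigene54208, JK161159.1, JK184576.1 and Unigene62578, and some of them may be pieces of 1 gene.

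**Figure D4:**
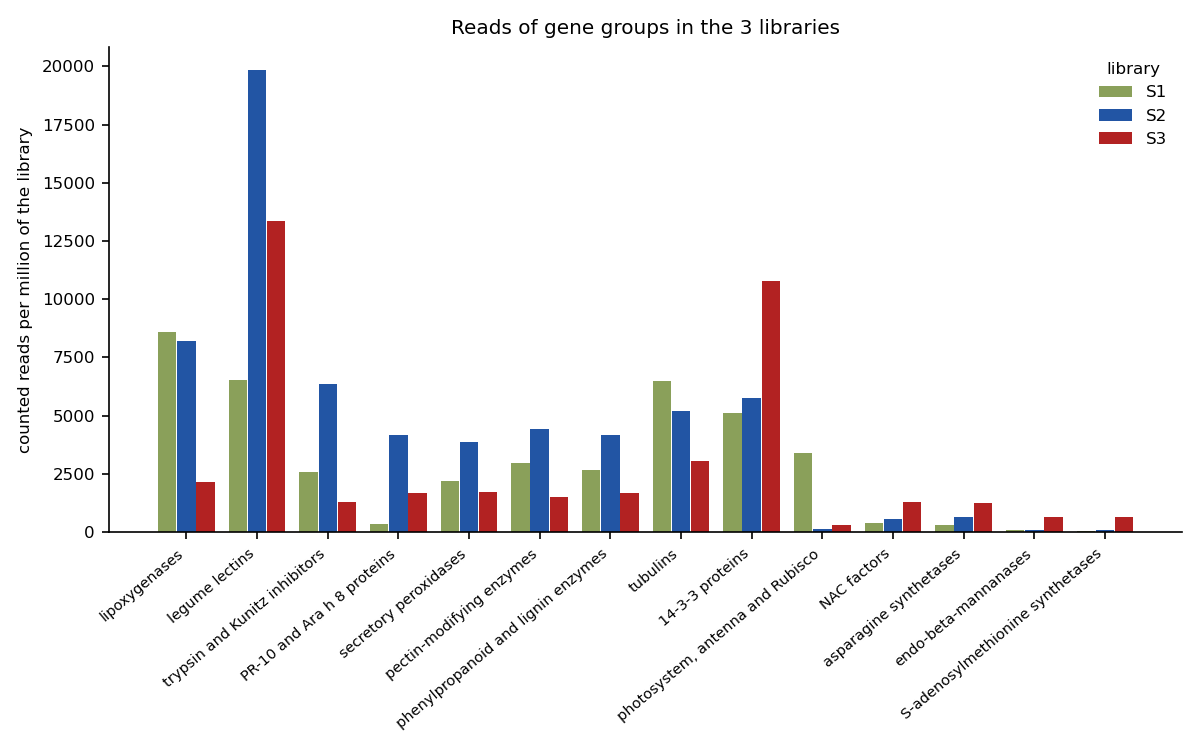
RPM, the counted reads per 1000000 reads of the library (vertical axis), of 14 gene groups in S1, S2 and S3, 1 bar per library and therefore without error bars. Trypsin inhibitors, PR-10 proteins, peroxidases and pectin enzymes were highest in S2, and 14-3-3 proteins, NAC factors, asparagine synthetases, mannanases and S-adenosylmethionine synthetases were highest in S3. In S3, EZ723575.1 held 93.5% of the 14-3-3 reads, and EZ727240.1 held 97.8% of the S-adenosylmethionine synthetase reads.

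Lipoxygenases add oxygen to fatty acids and feed the jasmonate pathway, and their reads were strongly lower in S3. Their reads were 8589.9, 8195 and 2143 RPM at S1, S2 and S3, with 19 falls and 2 rises among 37 members. Lipoxygenase-10 (EZ721263.1) had 1444, 1385 and 278 RPKM at S1, S2 and S3, and was 4.99-fold lower in S3 than in S2 (95% interval 4.80 to 5.19). A set of lipoxygenases was nearly confined to the buried stages, among them GW978495.1 with 1.01, 238 and 33.8 RPKM at S1, S2 and S3, chosen after its values were seen. Lipoxygenase 1 (EZ721594.1) rose, with 1.69, 2.69 and 16.3 RPKM at S1, S2 and S3. Allene oxide cyclase 5 (Unigene59590), a later enzyme of jasmonate synthesis, had 16.4, 40.7 and 2.58 RPKM at S1, S2 and S3 and was 15.8-fold lower in S3 than in S2 (95% interval 7.38 to 40.2).

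Gibberellin genes changed in both directions. Gibberellins promote elongation, 20-oxidases act late in their synthesis and 2-oxidases inactivate them. GA 20-oxidase (Unigene70011) had 74.0, 76.8 and 1.81 RPKM at S1, S2 and S3, and was 42.4-fold lower in S3 than in S2 (95% interval 23.4 to 85.5). A short sequence of the same name (Unigene27648) had 126 reads in S2 and 0 in S3, at least 45-fold lower with the floor of 3 reads, and was chosen after its values were seen. Another gibberellin 20-oxidase (EZ752537.1) had 0.980, 4.57 and 45.7 RPKM at S1, S2 and S3, and was 10.01-fold higher in S3 than in S2 (95% interval 7.10 to 14.5). In all, 4 of 8 members named as 20-oxidases fell and 3 rose. Among 2-oxidases 3 of 7 rose and 0 fell (2 and 0 to 1 under the other scalings), and the most abundant (Unigene68059) had 129.5, 83.0 and 67.3 RPKM at S1, S2 and S3. The most extreme 2-oxidases, EZ756923.1 and Unigene16197, had 13.6 and 18.1 RPKM in S2 and 116 and 113 in S3. A GID1-like gibberellin receptor (Unigene66308) had 30.6, 33.5 and 128 RPKM at S1, S2 and S3 and was 3.82-fold higher in S3 than in S2 (95% interval 3.14 to 4.68), while a DELLA protein (Unigene66671), a repressor of the response, had 169.6, 91.5 and 102 RPKM at S1, S2 and S3.

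Auxin genes fell more often than they rose, with 25 falls and 10 rises among 92 members. Auxin carriers, which move the hormone between cells, fell in 10 of 21 and rose in 0. Auxin transporter-like protein 3 (Unigene66197), an uptake carrier, had 164, 78.7 and 12.8 RPKM at S1, S2 and S3, lower at each stage. Auxin response factors fell in 1 of 37 and rose in 2 (3 and 1 under the other scalings), so few of these response regulators changed. The most abundant auxin-named sequence, an auxin-repressed protein (EZ721480.1), had 60.3, 252 and 1386 RPKM at S1, S2 and S3, and was 5.50-fold higher in S3 than in S2 (95% interval 5.16 to 5.87). Proteins of this name are found in dormant or non-growing tissues of other plants.

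Cytokinin signalling and abscisic acid genes rose more often than they fell. Histidine kinases and response regulators, which pass on the cytokinin signal, rose in 11 of 21 members and fell in 4. A type-B response regulator (Unigene71361), a transcription factor of the response, had 28.2, 35.1 and 147 RPKM at S1, S2 and S3 and was 4.20-fold higher in S3 than in S2 (95% interval 3.66 to 4.82), whereas type A response regulator RR1 (Unigene65953), of a class that damps the signal, had 41.0, 46.3 and 12.5 RPKM at S1, S2 and S3 and was 3.69-fold lower in S3 than in S2 (95% interval 2.67 to 5.19). The most abundant histidine kinase (EZ722061.1) had 154, 114 and 284 RPKM at S1, S2 and S3. Cytokinin induced message (Unigene71315) had 1.86, 28.4 and 1.28 RPKM at S1, S2 and S3. Abscisic acid and carotenoid cleavage genes rose in 5 of 6 members and fell in 0, a small group, with an abscisic acid-activated protein kinase (Unigene68600) at 43.1, 55.9 and 143 RPKM at S1, S2 and S3.

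Ethylene genes went in both directions, with 6 rises and 9 falls among 43 members (5 and 12 under the other scalings). These were 14.0% and 20.9%, against 18.4% and 14% of all members. The group median of 0.058 turned negative under the other scalings. ACC oxidase (EZ728087.1), the last enzyme of ethylene synthesis, had 2.28, 6.44 and 27.3 RPKM at S1, S2 and S3 and was 4.23-fold higher in S3 than in S2 (95% interval 3.19 to 5.69). Ethylene-responsive element binding protein 1 (GW958376.1) had 5.53, 43.3 and 1.58 RPKM at S1, S2 and S3, a ratio of 27.3-fold (95% interval 13.6 to 64.1) between S2 and S3. S-adenosylmethionine synthetase makes the methyl donor that is also the precursor of ethylene. One such sequence (EZ727240.1) had 13.0, 30.4 and 390.2 RPKM at S1, S2 and S3, from 322 reads in S2 to 4425 in S3, and was 12.8-fold higher in S3 than in S2 (95% interval 11.5 to 14.4). The other two members, EZ721108.1 and Unigene70679, fell from 42.8 to 12.1 RPKM and 12.7 to 5.58 RPKM.

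NAC factors, plant transcription factors of organ boundaries, secondary walls, ripening and senescence, included large rises. Of the 12 largest rises under the naming rule, 5 were NAC proteins. Their median log2 ratio was 0.93, or 0.74 relative to all members. Among 43 NAC members 21 rose, 15 of them at least 4 times, and 3 fell, against 18.4% and 14% of all members. NAC family transcription factor 3 (Unigene42291) had 0.635, 1.97 and 102 RPKM at S1, S2 and S3, from 3 reads in S2 to 167 in S3, and was 52.0-fold higher in S3 than in S2 (95% interval 17.5 to 255). NAC protein (Unigene8144) had 0, 0.916 and 56.9 RPKM at S1, S2 and S3, and NAC11 (Unigene10873) had 0.516, 3.39 and 40.6 RPKM at S1, S2 and S3. A NAC domain protein (JK195778.1), chosen after its values were seen, had 0, 0.762 and 71.8 RPKM at S1, S2 and S3. These sequences were low in both earlier libraries.

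Other NAC sequences started from a measurable level. NAC1 protein (Unigene63834) had 3.99, 14.3 and 198 RPKM at S1, S2 and S3, and was 13.8-fold higher in S3 than in S2 (95% interval 10.2 to 19.1). NAC-like transcription factor (Unigene18836) had 9.11, 5.42 and 76.6 RPKM at S1, S2 and S3, and was 14.1-fold higher in S3 than in S2 (95% interval 10.6 to 19.2). One of the falls was NAC secondary wall thickening promoting factor 1 (Unigene12567), named after an activator of fibre wall synthesis, with 33.8, 31.7 and 7.36 RPKM at S1, S2 and S3 and a ratio of 4.31-fold (95% interval 3.07 to 6.17). NAC reads in all were 383, 577 and 1291 RPM at S1, S2 and S3.

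**Figure D5:**
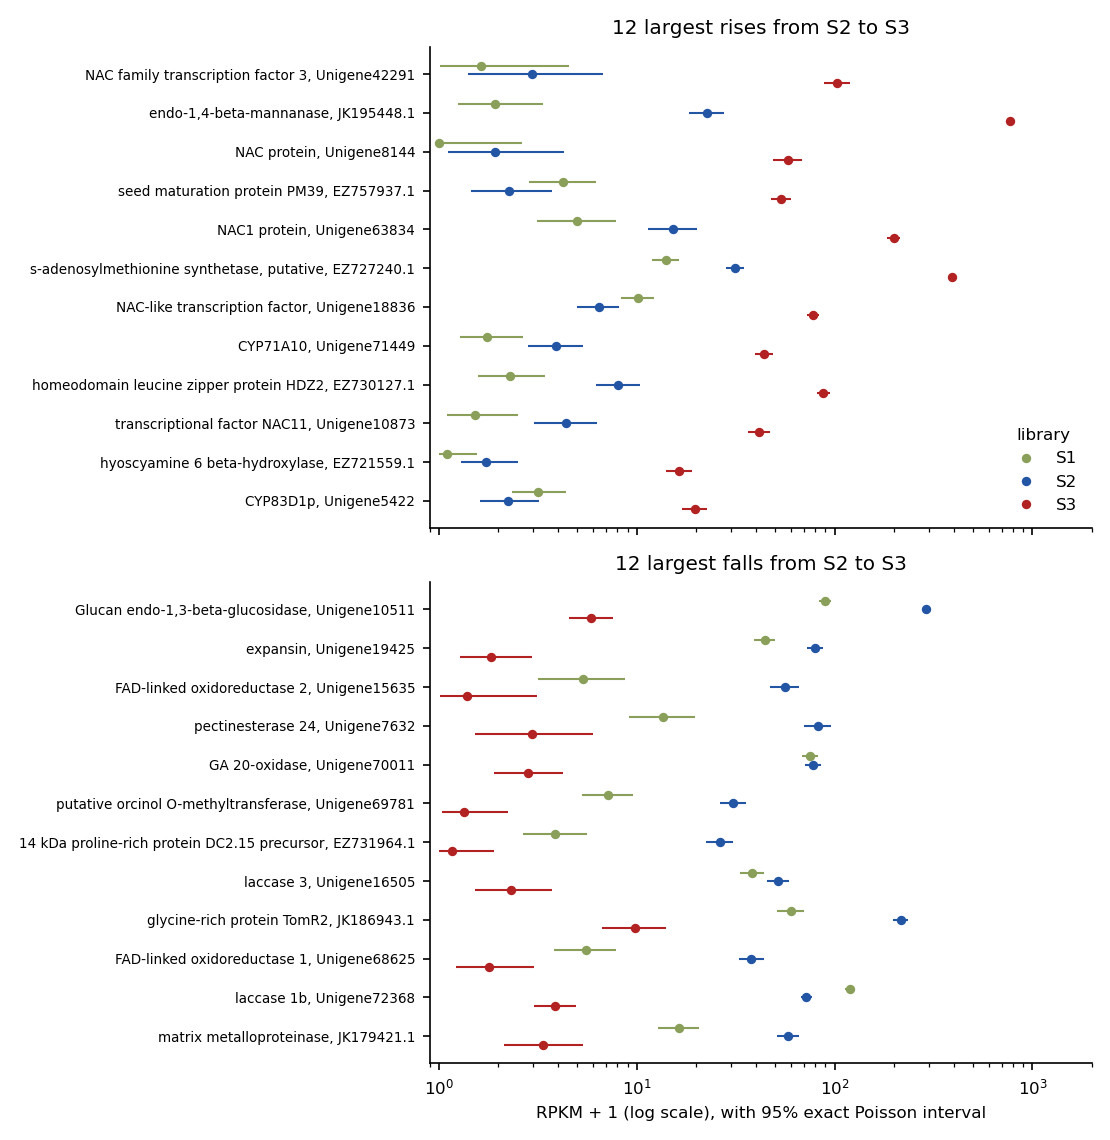
RPKM + 1 in each library (horizontal axis, log scale) of the 12 largest rises and the 12 largest falls among named sequences, with lines for the 95% exact Poisson interval of each value, which covers counting error only. S3 lies apart from both earlier libraries in each row shown, and S1 is mostly close to S2 or below it.

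Homeodomain and MADS-box factors, which set organ and tissue identity, rose in 26 of 76 members and fell in 5, and rose in 15 under the other scalings. Homeodomain leucine zipper protein HDZ2 (EZ730127.1) had 1.28, 7.07 and 86.8 RPKM at S1, S2 and S3, and was 12.3-fold higher in S3 than in S2 (95% interval 9.16 to 16.8). KNOX factors, which keep shoot meristem cells undifferentiated, fell in 5 of 8 members and rose in 3, and the most abundant, a class I factor (Unigene62874), had 211, 166 and 29.2 RPKM at S1, S2 and S3. Their usual partners, the BEL1 factors, rose in 6 of 9 and fell in 0, with a median log2 ratio of 1.07, but only 3 rose under the other scalings, with medians of 0.83 to 0.85. Class III homeodomain factor CNA1 (Unigene71152), of a family that patterns vascular tissue, had 57.7, 66.0 and 132 RPKM at S1, S2 and S3.

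MADS-box factors rose in 4 of 18 members and fell in 1, that is, in 22.2% and 5.56%, against 18.4% and 14% of all members. Agamous-like 1 protein (EZ732833.1), named after a relative that directs fruit opening in Arabidopsis, had 3.55, 10.9 and 64.8 RPKM at S1, S2 and S3, and was 5.93-fold higher in S3 than in S2 (95% interval 4.88 to 7.26). The most abundant member, a FRUITFULL-like factor (Unigene63346), had 146, 127 and 208 RPKM at S1, S2 and S3, higher in S3 but short of the limit. MADS-box protein GmNMH7 (Unigene10822) fell from 12.3 to 5.51 RPKM.

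Among MYB factors, which control phenolic metabolism and cell fate, 21 of 64 rose and 9 fell. MYB131 (EZ724304.1) had 0.666, 0.690 and 12.8 RPKM at S1, S2 and S3, and an R2R3 MYB factor (Unigene66906) had 46.0, 31.7 and 0.947 RPKM at S1, S2 and S3, so the family held changes of more than 10 times in both directions. Their ratios were 18.5-fold (95% interval 7.66 to 58.2) upward and 33.5-fold (95% interval 12.8 to 125) downward. WRKY factors, better known from defence, rose in 7 of 40 and fell in 3 (6 to 7 and 6 under the other scalings). Their share of rises was near the 18.4% of all members. WRKY24 (EZ721106.1) had 11.3, 14.6 and 114 RPKM at S1, S2 and S3. Helix-loop-helix and bZIP factors rose in 24 of 90 and fell in 7 (16 to 17 and 9 under the other scalings), with bZIP38 (Unigene71445) at 31.4, 56.8 and 206 RPKM at S1, S2 and S3. Members named AP2 or ERF rose in 5 of 26, also near the 18.4% of all members, and fell in 6.

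Other large changes lay in specialised metabolism. Among cytochrome P450 enzymes, oxidases of many small molecules, 31 of 146 members rose and 50 fell. CYP71A10 (Unigene71449) had 0.763, 2.90 and 43.0 RPKM at S1, S2 and S3 and CYP83D1p (Unigene5422) had 2.19, 1.24 and 18.7 RPKM at S1, S2 and S3, both among the 12 largest rises. An enzyme named after hyoscyamine 6 beta-hydroxylase of the nightshade family (EZ721559.1) had 0.102, 0.741 and 15.4 RPKM at S1, S2 and S3, from 7 reads in S2 to 156 in S3. On the falling side, FAD-linked oxidoreductase 2 (Unigene15635) had 4.35, 55.3 and 0.382 RPKM at S1, S2 and S3, FAD-linked oxidoreductase 1 (Unigene68625) 4.52, 37.0 and 0.795 RPKM at S1, S2 and S3, and an orcinol O-methyltransferase (Unigene69781) 6.18, 29.8 and 0.342 RPKM at S1, S2 and S3. All these were highest in S2. A matrix metalloproteinase (JK179421.1), an extracellular protease, had 15.3, 57.5 and 2.35 RPKM at S1, S2 and S3.

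Signalling and stress genes included the most abundant named transcript of S3. SGF14a (EZ723575.1), a 14-3-3 adaptor protein that binds phosphorylated partners, had 1471, 1645 and 3587 RPKM at S1, S2 and S3 and was above every other sequence with a named function in S3. It was 2.18-fold higher in S3 than in S2 (95% interval 2.15 to 2.21), while the family fell in 2 of 10 members and rose in 1. Under the other scalings SGF14a no longer passed the limit, and the family fell in 3 to 4 members and rose in 0. Catalase (EZ721054.1), which removes hydrogen peroxide, had 1486, 1380.4 and 1936 RPKM at S1, S2 and S3. Heat shock proteins and chaperones rose in 20 of 116 members and fell in 8 (13 and 16 under the other scalings). Their share of rises was near the 18.4% of all members, and their median of 0.19 turned negative under the other scalings. A cysteine protease (EZ721659.1) had 183, 226 and 719.6 RPKM at S1, S2 and S3, and was 3.18-fold higher in S3 than in S2 (95% interval 3.03 to 3.33), while proteases as a group rose in 17 of 119 and fell in 32. Resistance proteins of the NB-LRR type, intracellular sensors of pathogens, rose in 32 of 98 and fell in 6 (23 and 6 under the other scalings). These were 32.7% and 6.12%, against 18.4% and 14% of all members. Their levels lay near the limit of 10 RPKM, with medians of 9.43 RPKM in S2 and 13.7 in S3 and at most 62.7 RPKM in S3. A stress-induced receptor-like kinase (JK170820.1) had 8.75, 23.1 and 191 RPKM at S1, S2 and S3, and was 8.28-fold higher in S3 than in S2 (95% interval 6.60 to 10.5).

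The study discusses by name several unigenes whose proteins it assigned to S2 or S3, and since it chose them with these libraries at hand their direction is not independent evidence. The names are the study's, since the descriptions of most of these rows name no function. Of 19 such unigenes, 17 were members. Of those listed for S2, the fall was largest for a class III peroxidase (Unigene2527), with 27.7, 136 and 17.7 RPKM at S1, S2 and S3, a peroxidase-like protein (Unigene51557), with 7.62, 107 and 14.2 RPKM at S1, S2 and S3, and peroxidase 1 precursor (Unigene19499), with 47.8, 52.4 and 7.39 RPKM at S1, S2 and S3. The PDR-type ABC transporter 2 (Unigene71859), an exporter of small molecules, had 48.6, 189 and 92.0 RPKM at S1, S2 and S3. The study's tables and text differ on the stage of this transporter's protein. Alpha-expansin 4 (Unigene68089) had 97.5, 96.2 and 27.9 RPKM at S1, S2 and S3, and an amino acid/polyamine transporter (Unigene71843) had 38.4, 59.6 and 50.8 RPKM at S1, S2 and S3.

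Of the 8 assigned to S3, 2 rose. Nodulin MtN9 (Unigene58581), a gene of a metalloproteinase family first found in nodules, had no description in the table and so was not a member. It had 9.19, 20.7 and 201 RPKM at S1, S2 and S3, and was 9.69-fold higher in S3 than in S2 (95% interval 7.24 to 13.2). Actin-related protein 7 (Unigene68357) had 5.73, 7.91 and 31.8 RPKM at S1, S2 and S3, and MAP65-1a (Unigene71866), a bundler of microtubules, had 94.4, 122 and 209.6 RPKM at S1, S2 and S3. Starch branching enzyme I (Unigene69042) had 22.9, 35.5 and 41.8 RPKM at S1, S2 and S3, and a lipoxygenase (Unigene19591) 13.4, 36.5 and 34.4 RPKM at S1, S2 and S3. Cinnamate 4-hydroxylase (Unigene62400) had 104, 267 and 81.2 RPKM at S1, S2 and S3, and was lower in S3 than in S2.

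Members without a named function include larger values than any named one. The highest S2 value belonged to EZ730167.1, with 119 RPKM in S1, 9832 in S2 and 1938 in S3. The highest S3 value belonged to JK179307.1, with 2149, 3288 and 5365 RPKM in that order. The largest rise among those with 100 reads was that of EZ722525.1, from 0.614 to 83.6 RPKM, and the largest fall that of Unigene69862, from 397 to 3.87 RPKM.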

How the data were processed

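The authors sequenced poly(A) RNA of 3 gynophore stages, 1 library each, and aligned the reads to assembled peanut unigenes joined with public peanut sequences. The aligner and the use of strand were not given in the sources used here. Deposited read counts hold reads aligned to a single position, so reads shared by near-identical copies are missing from both, and several rows can stand for 1 gene. The deposited coverage is the percent of bases of a sequence with a read. The deposited RPKM, calculated by the authors, differed from the value recomputed from reads, length and library total by a relative 8.42e-09 at most. Names are those of the best BLAST descriptions, as deposited. The median member had 74 reads in S2 and 86 in S3.

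S3 was divided by S2 after adding a pseudocount of 1 to RPKM, and 2 times was the limit for a change. No tests were run, since each stage has 1 library. Intervals were exact at 95% and cover counting error only, and with 0 reads a floor of 3 reads was used. The members, gene groups and the rule for named sequences were chosen with earlier results of these data known. The rule took, among members with at least 100 reads in S2 and S3 together and a named function, 1 sequence per description (that with the most reads). Of these it named the 12 largest rises and falls, in each group the highest mean and the largest and smallest ratio, the 5 highest in each stage, and unigenes that the study discusses. Groups came from words in descriptions, and excluded words and narrower groups were added after names and values had been seen. Alternatives were other scalings, pseudocount, limits, lengths and redundancy. Calculations used Python 3.11.15 (scipy 1.17.1, numpy 2.4.6, pandas 2.3.3, plots by matplotlib 3.10.9) and R 4.3.3 with edgeR 4.0.16 for TMM factors only, and were tested on simulated data.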

Additional observations from a re-analysis of the deposited data

Results flagged for a closer look

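Sequences without a description lie outside the members, and they were more often higher in S3. Of 10235 such sequences with at least 10 RPKM in S2 or S3, 37.6% rose and 11.1% fell, against 18.4% and 14% of the members, and their median log2 ratio was 0.70.

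Undescribed sequences with the largest changes were JK169347.1 and Unigene59564 upward and EZ744000.1 and Unigene9959 downward. JK169347.1 had 0.242 RPKM in S1, 0.753 in S2 and 96.3 in S3, a log2 ratio of 5.79, from 3 reads in S2 to 411 in S3 (128-fold, 95% interval 43.5 to 623). Unigene59564 had 1.91, 3.57 and 182 RPKM in the same order, a log2 ratio of 5.33 (51.1-fold, 95% interval 26.7 to 112). EZ744000.1 had 497, 125 and 0.236 RPKM and a log2 ratio of -6.67, with 1 read in S3, so that the ratio of S2 to S3 was 530.3 with a 95% interval of 94.7 to 20986. Unigene9959 had 1.82, 229.8 and 2.94 RPKM and a log2 ratio of -5.87, that is, it was high in S2 and low on both sides. With 1 library per stage, no sample could be set against others of its own stage.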

How the results depend on the processing

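No paired analysis was possible because S2 and S3 have 1 library each, and for the same reason no library could be left out. With RPKM as deposited, 5346 members rose, 4069 fell and the median log2 ratio was 0.19. The balance depended on the scaling. With scaling by the median of ratios 3742 rose, 5371 fell and the median was -0.031; by the upper quartile 3639, 5491 and -0.048; by TMM 3733, 5386 and -0.033. A limit of 1 RPKM and no limit both gave 7855 rises and 6422 falls, since a ratio of 2 in RPKM + 1 needs at least 1 RPKM, and medians of 0.13 and 0.11. A limit of 50 RPKM left 1241 rises and 1330 falls, with a median of 0.00063. A mean of 10 RPKM over the 3 libraries gave a median of 0.11, and sequences of at least 300 bases 0.15. Unigenes alone gave 2507 falls and a median of 0.26. Keeping 1 sequence per description left 1063 rises and 1062 falls, with a median of 0.084. At 4 times 780 rose and 1092 fell. Sequences that name a function, chosen after seeing the data, gave 1949 rises, 1818 falls and a median of 0.13. Of the group medians whose interval lay on 1 side of 0, the sign changed for cyclins at 50 RPKM, to 0.17, and for trypsin and Kunitz inhibitors among unigenes, to 0.37, where the inter-alpha-trypsin inhibitor is the 1 member left. Of 168 named sequences past 2 times, 9 no longer passed under each of the 3 other scalings, and 7 others came to pass. Why these values moved was not tested beyond the construction of each alternative. With 74 and 86 reads in the median member, falls to a few reads carry wide intervals.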

Other observations

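Several groups that belong to no account above were divided as well. Aquaporins, the water channels, fell in 10 of 23 members and rose in 3, with plasma membrane intrinsic protein 1;1 (EZ722649.1) about level at 353, 378 and 363 RPKM at S1, S2 and S3 and a tonoplast intrinsic protein (EZ733864.1), of the vacuole membrane, at 331, 324 and 75.7 RPKM at S1, S2 and S3. Genes of fermentation and low oxygen fell in 14 of 31 and rose in 5. Alcohol dehydrogenase (EZ728091.1) had 173, 134 and 29.1 RPKM at S1, S2 and S3, and pyruvate decarboxylase (Unigene2342), the enzyme before it, had 16.1, 13.8 and 57.6 RPKM at S1, S2 and S3.

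Antioxidant enzymes rose in 16 of 71 members and fell in 9 (12 and 10 to 11 under the other scalings). These were 22.5% and 12.7%, near the 18.4% and 14% of all members, and the group median was -0.055. Thioredoxin h (EZ740649.1), a small reductant of protein disulphides, had 233, 290.0 and 39.3 RPKM at S1, S2 and S3 and was 7.38-fold lower in S3 than in S2 (95% interval 6.31 to 8.66), while a glutaredoxin (Unigene66069) had 2.88, 14.9 and 58.0 RPKM at S1, S2 and S3 and was 3.89-fold higher in S3 than in S2 (95% interval 2.88 to 5.32). Calmodulin (EZ732184.1), a calcium sensor, had 673, 731 and 339.6 RPKM at S1, S2 and S3, in a group of 186 calcium genes with 22 rises and 23 falls (14 to 15 and 35 to 36 under the other scalings). Sterol and brassinosteroid genes fell in 8 of 36 (12 to 13 under the other scalings) and rose in 2, with the LKB protein (EZ730963.1), a sterol reductase needed for brassinosteroids in pea, at 256, 139 and 36.2 RPKM at S1, S2 and S3.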
